A study of Mus musculus with 12 samples.

Results

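The capture difference asks which RNAs were recovered more, or less, with the biotin-tagged miR-27a mimic than with the biotin-tagged control mimic. Each recovery was set against the level of the RNA in the whole-cell libraries of the same mimic, which may not come from the same cultures. For each gene it was the pulldown-minus-whole-cell difference under miR-27a less the pulldown-minus-whole-cell difference under the control mimic. It is therefore also the mimic difference in pulldown RNA less the mimic difference in whole-cell RNA. All 12 of the 12 libraries entered it, and 13875 of 20540 genes were measured, those that reached 1 CPM (read counts scaled to the size of the library) in 3 or more libraries. A total of 149 genes (1.07% of those tested) passed the test, 47 (0.339%) with a higher and 102 (0.735%) with a lower capture difference. The higher genes were led by Fam19a4, Kcna5, Atp10b, Capn6, Nt5e, Kcna1 and C1ql3, beside Srp54b, whose reads may be split with near-identical copies. The lower genes included Nkx6-2, Gng4, Scg2, Foxj1 and the myelin genes Mag and Mbp.

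The cells were oligodendrocyte progenitor cells (OPCs) of C57BL/6 mouse brain, taken at postnatal day 6 to 7 and kept proliferating in a medium labelled SATO+PDGFRA. Every group had been transfected with a biotin-tagged mimic, so no group stood for untreated cells. The 4 groups were whole-cell RNA with the control mimic, whole-cell RNA with the miR-27a mimic, pulldown RNA with the control mimic and pulldown RNA with the miR-27a mimic, each with 3 libraries. The sources used here do not say how many animals were pooled, whether replicates came from separate cultures, or whether a pulldown and a whole-cell library came from the same dish. The p-values therefore rest on the variation among these libraries, and that variation may be only technical.

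A microRNA guides Argonaute proteins to messenger RNAs that pair with its seed, the bases near its 5′ end, and bound messengers are usually destabilised or translated less. A mimic is a synthetic duplex that supplies such a microRNA, and a biotin tag lets RNA held by it be collected. OPCs divide, and when they leave the cell cycle they pass through a committed stage into myelin-forming oligodendrocytes. Since the messengers of a microRNA's targets can fall in the cell while being held in the complex, capture is usually read against the whole-cell level.

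The mature mouse miR-27a-3p of RefSeq, encoded at chr8:84208727-84208747 on the plus strand of GRCm38.p6, is shown first, with its seed (bases 2 to 8) in capitals. Below it stand 8mer sites, ACTGTGAA, in capitals with their flanks, from the 3′ untranslated regions (UTRs) of 3 genes with a capture difference. They are the only higher genes that held an 8mer, Plk2 with its pair of sites and Btg2, and the lower gene with an 8mer and the largest difference, Nr2f6. The 3′ UTR sites are from GENCODE M21 on GRCm38 and are written 5′ to 3′ on the strand of the messenger.
mmu-miR-27a-3p: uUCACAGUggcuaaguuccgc
Plk2, upstream site: ttggaagacttggaACTGTGAAtaca
Plk2, downstream site: cttttggctgcttaACTGTGAActat
Btg2: gagcaaggttagcaACTGTGAAtgag
Nr2f6: ttctttttttaaagACTGTGAAatgt
The Plk2 sites lie at chr13:110400562-110400569 and chr13:110400652-110400659 on the plus strand. The Btg2 site lies at chr1:134076990-134076997 and the Nr2f6 site at chr8:71374373-71374380, both on the minus strand.

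The libraries held 15548418 to 24972188 assigned reads, and a gene with 0 reads had at most 0.116 to 0.200 CPM, the CPM of 3 reads, a limit that covers counting error only. Fraction was the main axis of variation, with 65.3% of the variance on the first principal component and 14.4% on the second, which set the mimics apart. On the third (5.40% of the variance) the library farthest out was pulldown miR-27a replicate 2, at 20.8 against -11.7 to 7.32 in the other libraries, with replicate 1 of that group at the low end. Summed Y-linked transcripts (Ddx3y, Uty, Kdm5d and Eif2s3y) were at 408 to 458 CPM in whole-cell libraries and 91.4 to 148 CPM in pulldown libraries, and Xist at 95.0 to 119 and 315 to 407 CPM. These levels thus differed between the fractions, and a difference in source culture cannot be told apart from the fraction itself. Their capture differences were small, -0.06 to 0.12 for the 4 Y-linked genes and 0.20 ± 0.12 for Xist (adjusted p = 0.50), and none of them passed the test. Just inside the limit for testing were 146 genes with exactly 3 libraries at 1 CPM or more, with a median of 0.774 CPM for their mean levels, and just outside it 200 genes with 2 such libraries and a median of 0.686 CPM.

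The OPC markers were well expressed. They summed to 5762 to 5855 CPM in whole-cell control and 6208 to 6278 CPM in whole-cell miR-27a libraries. Pulldown control libraries had 8098 to 8320 and pulldown miR-27a libraries 9293 to 9469 CPM, so this sum differed more by fraction than by mimic. Genes of myelin and mature oligodendrocytes summed to 14626 to 15110.5 CPM in whole-cell control and 13903 to 14339 CPM in whole-cell miR-27a libraries. Their sum was 7762 to 8754 CPM in pulldown control and 6047 to 7264 CPM in pulldown miR-27a libraries. Those of committed and newly formed oligodendrocytes summed to 13487.5 to 13775, 12882.5 to 13018, 8451 to 9285 and 6962.5 to 8660 CPM in the same order. Both sums thus also differed more by fraction than by mimic. Other cell types were present too. The summed astrocyte markers were at 14488 to 15031 CPM in whole-cell control, 13742 to 13903 in whole-cell miR-27a, 11247 to 11703 in pulldown control and 8143 to 10439 CPM in pulldown miR-27a libraries. Microglial markers summed to 73.4 to 114 CPM and neuron markers to 218 to 331 CPM over all libraries. Of the marker lists, Cldn5 of endothelial cells and Kl of the choroid plexus were near 0, with 9 reads each over the 12 libraries. In bulk samples such as these, fewer cells of a type and less RNA per cell cannot be told apart.

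The test was limma's moderated test on log2(CPM + 1) in 1 fit of the 12 libraries, with Benjamini-Hochberg adjustment over the 13875 genes and a threshold of 0.05. Differences are on that scale, where the change of a gene at low CPM is understated, and carry the standard error of the fit. For a low gene whose level differs between fractions, equal fold changes in both would thus give a capture difference other than 0. On the deposited log2 CPM, 138 genes passed, 135 of them among the 149. In the same fit the mimic difference passed the test for 22% of genes within pulldown RNA (10.1% higher, 11.9% lower) and for 10.2% within whole-cell RNA (5.48% higher, 4.72% lower). At an unadjusted p under 0.05 the capture difference held for 1804 genes, 13.0% of those tested. The changes were mostly modest: the median size was 0.53 among the 149 genes and 0.13 among all genes tested, and only 5 genes (4 higher, 1 lower) differed by at least 1 on the log2 scale.

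**Figure D1:**
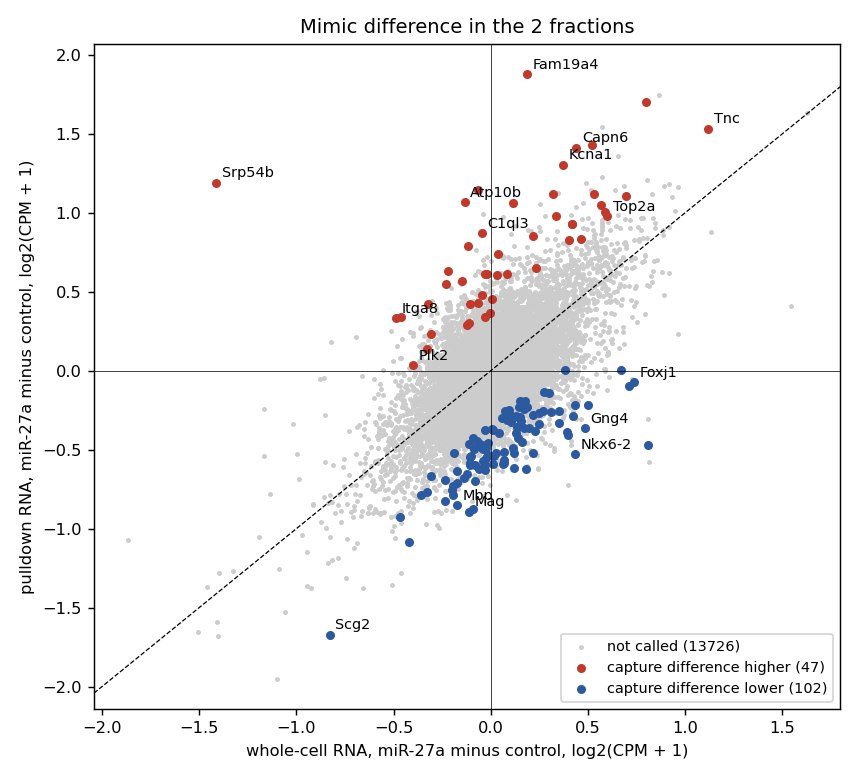
Mimic difference (miR-27a minus control, log2(CPM + 1)) in whole-cell RNA (horizontal axis) and in pulldown RNA (vertical axis) for each of the 13875 genes, with the 47 higher genes in red and the 102 lower genes in blue. The dashed line marks equal differences, and distance from it is the capture difference and most coloured points lie near 0 on the horizontal axis and away from 0 on the vertical one.

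The capture difference of most called genes lay in the pulldown libraries. Among the 47 higher genes the median mimic difference was 0.79 in pulldown RNA and 0.0045 in whole-cell RNA, and among the 102 lower genes it was -0.47 and 0.065. Of the higher genes, 25 passed the test within pulldown RNA and not within whole-cell RNA, 16 were higher with miR-27a in both, 3 passed only as lower in whole-cell RNA, and 3 were higher in pulldown and lower in whole-cell RNA. Of the lower genes, 74 passed within pulldown RNA alone, 9 were lower in both, 10 passed only as higher in whole-cell RNA, and 9 were lower in pulldown and higher in whole-cell RNA. All of these comparisons share libraries, so their calls are not independent of each other.

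The count depended on single libraries. Leaving out each library in turn gave 43 to 473 genes, fewest in the fit that left out whole-cell miR-27a replicate 3 and most in the fit that left out pulldown miR-27a replicate 2, the library that stood apart. The fit without that library called all 149 genes again. Without whole-cell control replicate 1 or 3 the count was 54 or 53, without whole-cell miR-27a replicate 1 or 2 it was 57 or 66, and without pulldown control replicate 1 or 3 it was 90 or 49, while the count without replicate 1 of pulldown miR-27a was 359. All 149 genes kept their sign in the 12 fits, which says little, since each fit kept all but 1 of the libraries that chose them. Of the 149 genes, 37 (15 higher, 22 lower) passed in each fit. Scaling by median-of-ratios size factors gave 53 higher and 72 lower genes, a share of 42.4% higher against 31.5% here. Same-numbered pulldown libraries of the 2 mimics deviated together, with correlations of 0.107 to 0.275 against -0.198 to 0.0618 for different-numbered ones. A different-numbered pair of whole-cell control and pulldown miR-27a libraries reached 0.222, so these values do not establish a pairing. A fit with the replicate number as a block within the pulldown libraries, added after the data were seen, called 644 genes (239 higher, 405 lower), among them all 149.

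**Figure D2:**
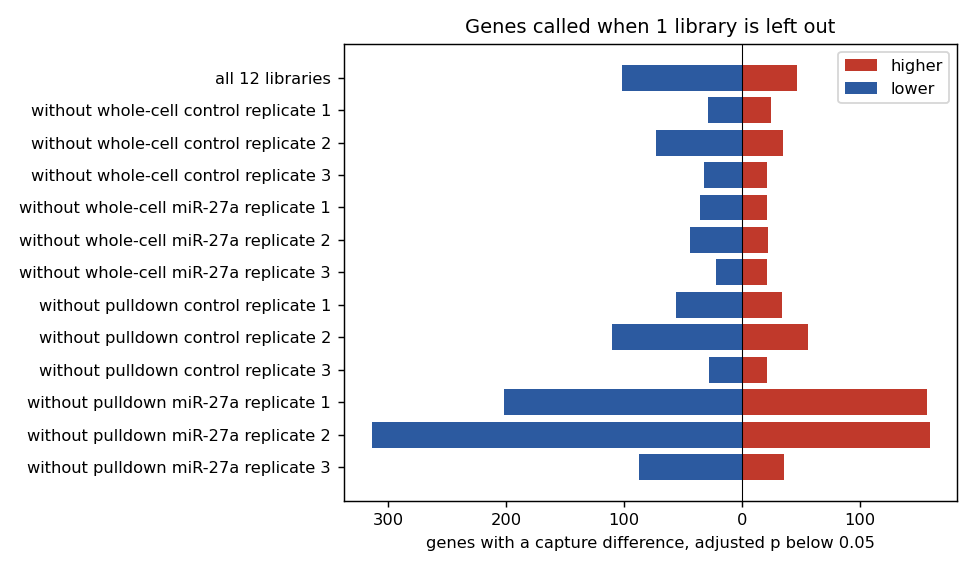
Number of genes with a higher (red, to the right) and a lower (blue, to the left) capture difference at an adjusted p below 0.05, with all 12 libraries and with each library left out. The bars are longest without pulldown miR-27a replicates 1 and 2, at 359 and 473 genes in all, and shortest without whole-cell miR-27a replicate 3, at 43.

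Among the higher genes, the largest capture difference after that of Srp54b was found for Fam19a4 (chromosome 6, 96831203 to 97060413 of GRCm38), a secreted chemokine-like protein of the nervous system. Its level was 1.02, 0.888 and 1.27 CPM in whole-cell control, 1.08, 1.54 and 1.41 in whole-cell miR-27a, 2.34, 3.36 and 2.85 in pulldown control and 13.6, 12.7 and 12.8 CPM in pulldown miR-27a libraries. The pulldown miR-27a libraries were all above the others, while the whole-cell groups overlapped. The capture difference was 1.69 ± 0.20 (adjusted p = 0.000217), from a mimic difference of 1.88 ± 0.14 in pulldown RNA and 0.18 ± 0.14 in whole-cell RNA.

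Atp10b, a lipid-transporting ATPase of membranes, was read at 7.84, 7.34 and 6.54 CPM in whole-cell control, 7.11, 6.04 and 6.36 in whole-cell miR-27a, 14.9, 16.5 and 16.4 in pulldown control and 36.4, 34.5 and 32.7 CPM in pulldown miR-27a libraries. Both pulldown groups were above both whole-cell groups, and the miR-27a pulldown was the highest, for a capture difference of 1.20 ± 0.14 (adjusted p = 0.000217). C1ql3, a secreted C1q-like protein, was at 26.2, 25.6 and 24.7 CPM in whole-cell control, 24.4, 24.3 and 25.3 in whole-cell miR-27a, 29.4, 27.6 and 24.4 in pulldown control and 50.4, 54.4 and 46.4 CPM in pulldown miR-27a libraries. Only the last group stood clear of the others, and the difference was 0.92 ± 0.12 (adjusted p = 0.000633).

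Capn6, an X-linked member of the calpain family, changed order between fractions. It was at 36.3, 34.1 and 35.6 CPM in whole-cell control and 25.5, 21.9 and 23.1 in pulldown control, so that the control pulldown held less of it than the cells. Under miR-27a it was at 49.8, 46.7 and 48.4 CPM in whole-cell and 60.7, 68.5 and 63.1 CPM in pulldown RNA, so that the pulldown held more. The capture difference was 0.97 ± 0.10 (adjusted p = 0.000217). The mimic difference was above 0 in both fractions, at 0.44 ± 0.07 in whole-cell and 1.41 ± 0.07 in pulldown RNA.

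Voltage-gated potassium channel subunits gave 2 of the 12 largest rises. Kcna1 was at 12.05, 11.01 and 10.3 CPM in whole-cell control, 15.2, 13.9 and 14.9 in whole-cell miR-27a, 18.6, 20.8 and 22.6 in pulldown control and 51.1, 55.3 and 50.4 CPM in pulldown miR-27a libraries, with a capture difference of 0.93 ± 0.13 (adjusted p = 0.00158). Kcna5 was low, at 1.20 to 1.47 CPM in whole-cell control, 1.02 to 1.52 in whole-cell miR-27a, 1.66 to 2.47 in pulldown control and 5.19 to 6.66 CPM in pulldown miR-27a libraries, with 1.21 ± 0.21 (adjusted p = 0.0067). For both, the miR-27a pulldown libraries did not overlap the control pulldown libraries, and the calls held in each leave-one-out fit. Most named genes were chosen by these same values, so groups that do not overlap, here and for other named genes, are no independent test. How many of all genes had groups apart in this way was not counted.

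Ptgds, Nt5e and Itga8 were also higher. Ptgds, the lipocalin-type prostaglandin D synthase, was at 6.88 to 9.34 CPM in whole-cell control, 13.6 to 15.9 in whole-cell miR-27a, 8.45 to 10.3 in pulldown control and 29.7 to 34.4 CPM in pulldown miR-27a libraries. It was higher with miR-27a in both fractions, and more so in the pulldown (capture difference 0.90 ± 0.16, adjusted p = 0.00756). Nt5e, an ectonucleotidase that makes adenosine, was at 5.74 to 6.11 CPM in pulldown control and 12.9 to 14.1 CPM in pulldown miR-27a libraries against 2.47 to 3.20 and 3.13 to 3.31 CPM in the whole-cell groups (0.95 ± 0.16, adjusted p = 0.00552). Itga8, an integrin alpha subunit, moved in opposite directions: it was lower with miR-27a in whole-cell RNA (20.2 to 20.6 against 12.8 to 16.8 CPM) and higher in pulldown RNA (22.3 to 25.6 against 28.7 to 31.7 CPM), for a capture difference of 0.82 ± 0.13 (adjusted p = 0.00417).

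Pamr1, a secreted protein with a peptidase-like domain, and Dmrta1, a DM-domain transcription factor, were less stable. Pamr1 had a capture difference of 0.91 ± 0.20 (adjusted p = 0.034) and Dmrta1 of 0.80 ± 0.18 (adjusted p = 0.039), and each passed in only 5 of the 12 leave-one-out fits. Dmrta1 was lower with miR-27a in whole-cell RNA, at 16.5 to 17.6 against 21.7 to 25.6 CPM, while its pulldown groups, at 10.1 to 15.5 and 14.5 to 18.6 CPM, overlapped.

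The highest value of all belonged to Srp54b, a copy of the gene for the signal recognition particle subunit that binds signal peptides, and it is uncertain. Its level varied within groups, at 18.9, 6.09 and 11.1 CPM in whole-cell control, 6.57, 2.49 and 2.42 in whole-cell miR-27a, 5.15, 2.51 and 8.03 in pulldown control and 14.6, 12.8 and 9.78 CPM in pulldown miR-27a libraries. The capture difference was 2.60 ± 0.49 (adjusted p = 0.0124), and the call was lost in 1 leave-one-out fit. The near-identical copies Srp54a and Srp54c had capture differences of -0.30 and 0.02 and did not pass, and counting could have split reads among the 3 copies.

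**Figure D3:**
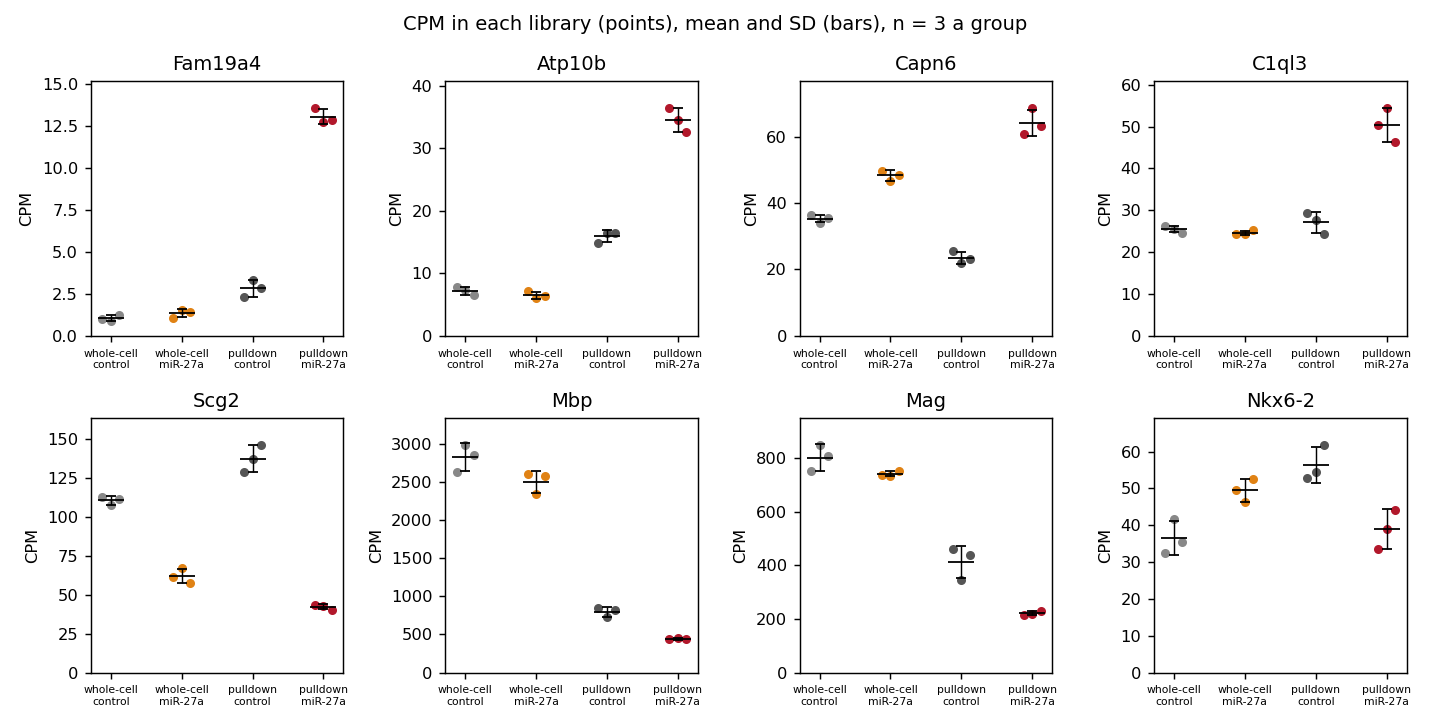
CPM in each of the 12 libraries for 4 genes with a higher and 4 with a lower capture difference, with the mean and SD of each group (n = 3). Fam19a4, Atp10b, Capn6 and C1ql3 are highest in the miR-27a pulldown, whereas Scg2, Mbp and Mag are lowest there and Nkx6-2 goes up with miR-27a in whole-cell RNA and down in pulldown RNA.

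Of the lower genes, Scg2 passed in each leave-one-out fit. It encodes secretogranin II, a granin of secretory vesicles and a peptide precursor. Its level was 113, 107 and 112 CPM in whole-cell control and 61.3, 66.9 and 57.6 in whole-cell miR-27a libraries, against 129, 137 and 146 in pulldown control and 43.4, 42.99 and 40.4 CPM in pulldown miR-27a libraries. Scg2 was lower with miR-27a in both fractions, by a larger amount in the pulldown, for a capture difference of -0.85 ± 0.10 (adjusted p = 0.000217). The other 12 tested granins and peptide-processing genes did not pass, and the list's median was -0.04 (0.018 without pulldown control replicate 1 and -0.098 without replicate 2).

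Nkx6-2, a homeodomain transcription factor of maturing oligodendrocytes, had opposite mimic differences. It was at 32.5, 41.7 and 35.5 CPM in whole-cell control and 49.6, 46.3 and 52.6 in whole-cell miR-27a libraries, and at 52.7, 54.4 and 61.8 in pulldown control and 33.5, 39.1 and 44.2 CPM in pulldown miR-27a libraries. The groups did not overlap within either fraction. The capture difference was -0.96 ± 0.14 (adjusted p = 0.00249), from 0.43 ± 0.10 in whole-cell and -0.53 ± 0.10 in pulldown RNA.

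Gng4, a G-protein gamma subunit, also had opposite mimic differences, with 27.03 to 32.1 CPM in whole-cell control, 40.5 to 41.6 in whole-cell miR-27a, 24.3 to 30.9 in pulldown control and 19.7 to 21.98 CPM in pulldown miR-27a libraries (-0.85 ± 0.13, adjusted p = 0.00249). Foxj1, a transcription factor of motile cilia, was at 19.3 to 24.3 CPM in whole-cell control and 35.2 to 37.3 CPM in whole-cell miR-27a libraries, while its pulldown groups overlapped at 20.6 to 24.3 and 18.2 to 22.1 CPM. Its difference of -0.81 ± 0.14 (adjusted p = 0.00695) thus lay in the whole-cell libraries. Foxj1 was the only called member of the 6 tested ependymal and choroid markers. The sum of all 10 genes of that list in the table, tested or not, was 83.5 to 93.2 CPM in whole-cell control, 98.1 to 112 in whole-cell miR-27a, 231 to 250 in pulldown control and 239 to 269 CPM in pulldown miR-27a libraries.

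In all, 12 genes passed the test within both fractions with opposite signs, 3 higher (Srp54b, Itga8 and Calcrl) and 9 lower (Nkx6-2, Gng4, Sema4a, Ajap1, Prph, Lrch1, Metrn, Psd2 and Spry1). Prph, which encodes the intermediate filament peripherin, was at 60.2 to 73.8 CPM in whole-cell control, 89.1 to 92.2 in whole-cell miR-27a, 66.2 to 75.3 in pulldown control and 57.04 to 63.4 CPM in pulldown miR-27a libraries (-0.65 ± 0.11, adjusted p = 0.00417). Calcrl, the receptor component for calcitonin gene-related peptide and adrenomedullin, had 53.9 to 57.4, 42.8 to 45.7, 112 to 115 and 121 to 155 CPM in the same order (0.54 ± 0.11, adjusted p = 0.0207). Both were chosen after their values were seen.

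The remaining large falls were less stable. Sema4a, a semaphorin, had a capture difference of -0.80 ± 0.17 (adjusted p = 0.0238) and passed in 6 of 12 leave-one-out fits. Nr2f6, an orphan nuclear receptor, had -0.74 ± 0.16 (adjusted p = 0.0322) and passed in 6, and Adc had -0.79 ± 0.15 (adjusted p = 0.013) and passed in 8. The actin regulators Ssh3, a cofilin phosphatase, and Ablim1, an actin-binding LIM protein, had -0.80 ± 0.19 and -0.78 ± 0.19 (adjusted p = 0.0472 and 0.0482) but passed in only 1 and 2 of those fits.

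A few small and structural RNAs were lower. Scarna2, a small Cajal body RNA, had the largest fall, -1.28 ± 0.31, but with an adjusted p of 0.0486, calls in 4 of 12 leave-one-out fits and scattered values, 9.31, 18.5 and 10.6 CPM in whole-cell control and 21.2, 31.4 and 45.4 CPM in pulldown miR-27a libraries. Rmrp, the RNA of the mitochondrial RNA processing ribonuclease, was at 2929.9 to 3879 CPM in whole-cell control, 3455 to 4028 in whole-cell miR-27a, 4099 to 4954 in pulldown control and 3097 to 3503 CPM in pulldown miR-27a libraries (-0.61 ± 0.14, adjusted p = 0.0389). Snora78, a box H/ACA small nucleolar RNA, had -0.80 ± 0.17 (adjusted p = 0.0286). Rmrp and Snora78 each passed in 4 of 12 leave-one-out fits. Of 16 tested abundant small non-coding RNAs, 2 were lower, none was higher and the median was -0.14, with a range of -0.30 (without whole-cell control replicate 3) to -0.049 (without pulldown miR-27a replicate 3) when each library was left out. Of 72 tested small nucleolar RNAs as a class, 1 was called (1.39%, beside 1.07% of all genes), 35 were above 0 and the median was -0.019. The ribosomal RNA precursor entry Rn45s, at 5163 to 8466 CPM in whole-cell and 16082 to 22588 CPM in pulldown libraries, had a capture difference of -0.72 ± 0.17 (adjusted p = 0.0485). Rn45s passed in 5 of 12 leave-one-out fits, and its part in the values of other genes was not tested.

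By lineage stage, 5 genes of myelin and 4 of committed oligodendrocytes were lower, and 2 OPC markers and 3 mitotic genes were higher. The shares called in these lists were 19.2%, 18.2%, 7.41% and 11.5%, in that order. Of all genes tested, 0.735% were lower and 0.339% higher, and the lists were chosen with earlier results of these data known. The myelin and mature oligodendrocyte list had 26 tested members, of which 5 were lower, none was higher and 21 did not pass. The median was -0.19, beside -0.013 over all genes tested, and 9 members were above 0. With a pseudocount of 5 CPM the median was -0.11, and over the 19 members left by a filter of 5 CPM it was -0.29. Mbp, myelin basic protein, was at 2625, 2985 and 2858 CPM in whole-cell control, 2599, 2338 and 2576 in whole-cell miR-27a, 848, 725 and 815 in pulldown control and 434, 450.2 and 436 CPM in pulldown miR-27a libraries. The groups did not overlap within either fraction, but the mimic difference in whole-cell RNA, -0.17 ± 0.07, did not pass limma's test (adjusted p = 0.141). The pulldown groups were the further apart, and the capture difference was -0.68 ± 0.10 (adjusted p = 0.00249).

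Mag, the myelin-associated glycoprotein of the inner myelin membrane, was at 750.4, 848 and 806 CPM in whole-cell control, 738, 733 and 752 in whole-cell miR-27a, 459, 346 and 436 in pulldown control and 214, 218 and 229 CPM in pulldown miR-27a libraries (-0.78 ± 0.11, adjusted p = 0.00249). Gal3st1, which makes sulfatide, had -0.64 ± 0.10 (adjusted p = 0.00249), and its pulldown level was 228 to 253 CPM with control and 158 to 188 CPM with miR-27a. Trf, the iron carrier transferrin, had -0.59 ± 0.10 (adjusted p = 0.00552), with 199.8 to 241 and 116 to 133 CPM in the same groups. Opalin, a membrane glycoprotein of oligodendrocytes, was higher with miR-27a in whole-cell RNA, at 67.6 to 71.1 against 84.2 to 86.7 CPM, and had -0.44 ± 0.09 (adjusted p = 0.0241).

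The list of committed and newly formed oligodendrocyte genes had 22 tested members, 4 lower and none higher, with a median of -0.21 and a single member above 0, Gpr17. Without replicate 1 of pulldown miR-27a the median was -0.14, with 3 members above 0. Besides Nkx6-2, the called members were Sema5a, a semaphorin (-0.52 ± 0.08, adjusted p = 0.00417), Cnksr3, a scaffold protein (-0.56 ± 0.12, adjusted p = 0.026), and Sirt2, a deacetylase of oligodendrocytes (-0.41 ± 0.09, adjusted p = 0.0317). Sema5a was at 96.5 to 106 CPM in whole-cell control, 93.6 to 98.9 in whole-cell miR-27a, 123 to 129.9 in pulldown control and 79.1 to 86.5 CPM in pulldown miR-27a libraries, so that its pulldown groups were apart and its whole-cell groups overlapped. Tcf7l2, a transcription factor of this stage, had -0.51 ± 0.17 and did not pass (adjusted p = 0.188). The list's summed level went from 8451 to 9285 CPM in pulldown control to 6962 to 8660.2 CPM in pulldown miR-27a libraries, ranges that overlap.

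Astrocyte markers had the same sign. Of 20 tested members 1 was lower, none was higher, 3 were above 0 and the median was -0.20. That median was -0.083, with 7 members above 0, without the second replicate of the miR-27a pulldown, the library that stood apart, and -0.31, with 1 above 0, without the first. Gfap, the astrocyte intermediate filament, was at 1283, 1356 and 1359 CPM in whole-cell control, 1205, 1113 and 1171 in whole-cell miR-27a, 832, 886 and 913 in pulldown control and 595, 449 and 550.2 CPM in pulldown miR-27a libraries (-0.53 ± 0.11, adjusted p = 0.028). The groups did not overlap within either fraction, but the mimic difference in whole-cell RNA, -0.20 ± 0.08, did not pass limma's test (adjusted p = 0.143). The lowest library was the second replicate of the miR-27a pulldown. Gfap passed in 5 of the 12 leave-one-out fits. In the fit without the first replicate of the miR-27a pulldown, which called 359 of 13828 genes, 7 astrocyte markers passed. The fall of summed astrocyte markers from pulldown control to pulldown miR-27a libraries, given above, moved with the oligodendrocyte lists, and its part in their values was not tested.

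OPC markers had 27 tested members, 2 higher and none lower, a median of 0.13 and 16 members above 0. The median fell to 0.063 to 0.073 when replicate 2 of pulldown miR-27a, replicate 1 or 2 of pulldown control or replicate 3 of whole-cell miR-27a was left out. Pcdh15, a protocadherin, was at 62.5, 60 and 58.5 CPM in whole-cell control, 54.4, 55.6 and 52.9 in whole-cell miR-27a, 103, 111 and 103 in pulldown control and 136, 182 and 156 CPM in pulldown miR-27a libraries (0.72 ± 0.11, adjusted p = 0.00404). It was raised in the pulldown with the highest value in replicate 2. Gjc3, a connexin of the oligodendrocyte lineage, had 0.80 ± 0.15 (adjusted p = 0.0104), with 38 to 48.6 CPM in pulldown control and 78.4 to 111 CPM in pulldown miR-27a libraries. Pdgfra, the growth factor receptor that defines OPCs, was at 1395, 1368 and 1357 CPM in pulldown control and 1610.2, 1506 and 1538 CPM in pulldown miR-27a libraries, and its difference of 0.32 ± 0.08 missed the threshold (adjusted p = 0.0511). Olig2, the lineage transcription factor, had -0.11 ± 0.08 (adjusted p = 0.625).

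All but 1 of the 26 G2/M and mitosis genes had a capture difference above 0, with a median of 0.26, and 3 of them passed: Top2a, which untangles DNA, Anln, which builds the contractile ring, and Tpx2, a spindle assembly factor. Top2a was at 381, 359 and 370.1 CPM in whole-cell control, 558, 571 and 552 in whole-cell miR-27a, 196, 229 and 203 in pulldown control and 427, 407 and 403 CPM in pulldown miR-27a libraries. The mimic difference was above 0 in both fractions, 0.60 ± 0.06 in whole-cell and 0.98 ± 0.06 in pulldown RNA, and the excess in the pulldown was 0.38 ± 0.09 (adjusted p = 0.0389). Anln had 0.41 ± 0.09 (adjusted p = 0.0392) and Tpx2 0.37 ± 0.09 (adjusted p = 0.0431). No member of the list passed when any 1 whole-cell library was left out, nor in the fits that left out pulldown control replicate 1, pulldown control replicate 3 or the third miR-27a pulldown. The median was 0.27 under both other scalings. In the fit that left out the library standing apart, the second replicate of the miR-27a pulldown, 473 of 13829 genes passed. This was the most of any leave-one-out fit. The numbers of list members passing there were 7 for G2/M, 7 for OPC markers, 11 for committed oligodendrocytes, 9 for myelin and 3 for astrocytes.

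Ccnb1, the mitotic cyclin, did not share in this. It was at 50.6 to 53.8 CPM in whole-cell control, 158 to 167 in whole-cell miR-27a, 55.7 to 65.7 in pulldown control and 168 to 210.3 CPM in pulldown miR-27a libraries, about equally higher with miR-27a in each fraction, and its capture difference was 0.01 ± 0.11 (adjusted p = 0.984). None of the 28 G1/S and DNA replication genes passed limma's test, 2 had an unadjusted p under 0.05, and their median was 0.06. That median rested on single libraries: it was -0.025 (13 above 0) without replicate 1 of pulldown miR-27a and 0.18 (23 above 0) without replicate 2.

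**Figure D4:**
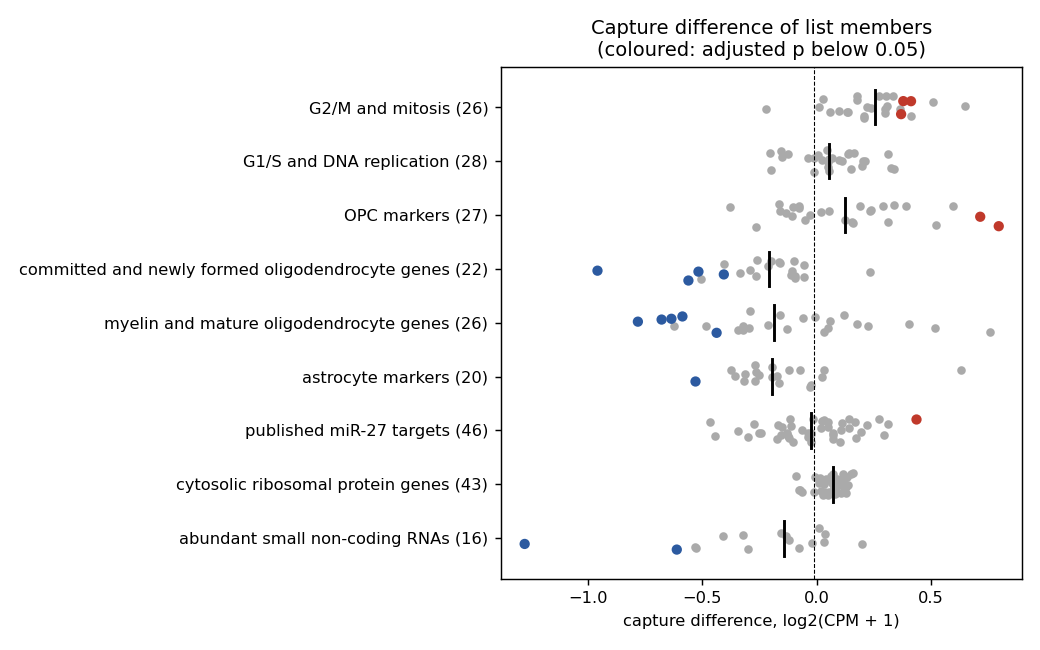
Capture difference on the log2(CPM + 1) scale of each tested member of 9 gene lists (points, with the number tested in parentheses), red or blue where the adjusted p was below 0.05, with the median of the list as a black bar and that of all genes tested as a dashed line. The medians of the G2/M (0.26) and OPC (0.13) lists lie to the right of the line, and those of the committed (-0.21), myelin (-0.19) and astrocyte (-0.20) lists to the left.

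Genes with miR-27a sites in the 3′ UTR had no larger a share of calls than genes without them. Of the tested genes, 12799 had an annotated 3′ UTR, 871 of them (6.81%) with an 8mer and 3880 (30.3%) with an 8mer or a 7mer (ACTGTGA or CTGTGAA). Of the 45 higher genes with a 3′ UTR, 2 (4.44%) held an 8mer and 9 (20%) any site, and of the 93 lower ones 5 (5.38%) held an 8mer and 23 (24.7%) any site. By class, 0.230% of 8mer genes were higher and 0.574% lower, against 0.404% and 0.785% of the 8919 genes with no site.

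The median capture difference was -0.014 for 8mer genes, -0.003 for those with ACTGTGA, -0.012 for those with CTGTGAA and -0.018 for those with none. The same 8mer genes had a median mimic difference of -0.092 in whole-cell RNA and -0.11 in pulldown RNA, against 0.022 and 0.0088 for genes with no site. Genes with an 8mer were thus lower with miR-27a by similar amounts in both fractions, and their medians for capture lay close to the median of all genes. Of the 54 genes with 2 or more 8mers, 1 passed, Plk2, and their median was -0.0045. A match to these letters describes the sequence and does not show binding.

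**Figure D5:**
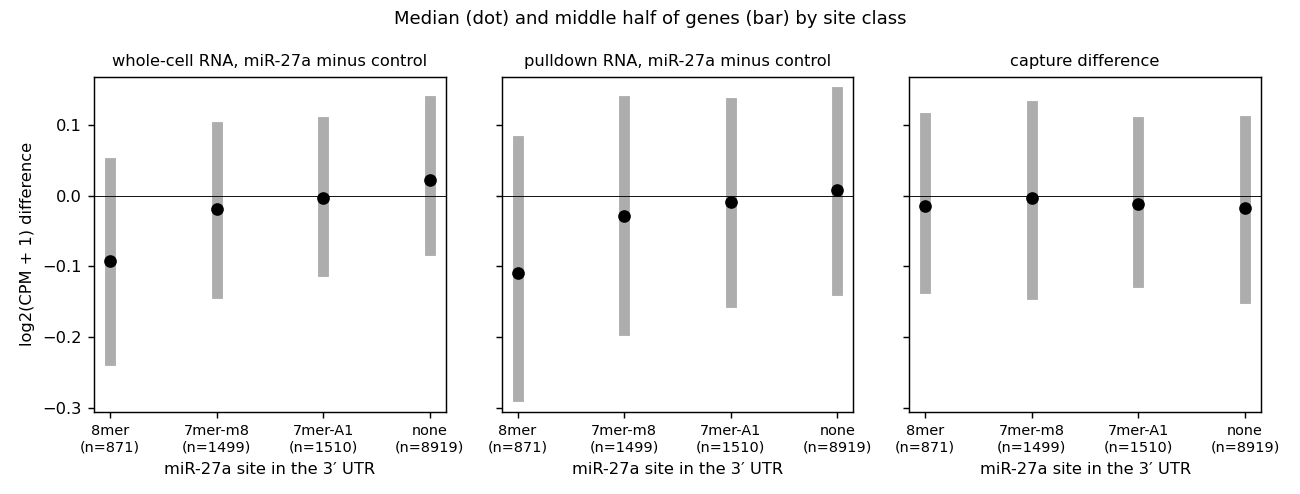
Median (dot) and interquartile range over genes (bar) of the log2(CPM + 1) differences by miR-27a site class in the 3′ UTR, in whole-cell RNA, in pulldown RNA and for the capture difference, with 871 to 8919 genes a class. The 8mer class is below the others in both fractions, at -0.092 and -0.11, and level with them for the capture difference.

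Plk2, a polo-like kinase and the gene with both 8mers printed above, was the single called member of 46 tested published miR-27 targets (1 higher, none lower, median -0.02, and 0.012 without pulldown control replicate 2). It was at 71.1, 75.7 and 73.7 CPM in whole-cell control and 55.4, 56.5 and 54.5 in whole-cell miR-27a libraries, and at 86, 92.3 and 87.2 in pulldown control and 87.8, 92.3 and 92.2 CPM in pulldown miR-27a libraries. The level was lower with miR-27a in whole-cell RNA and overlapped between mimics in pulldown RNA, for a capture difference of 0.43 ± 0.08 (adjusted p = 0.0134), called in 8 of 12 leave-one-out fits. Btg2, an antiproliferative gene of the immediate early list, was at 23.97, 25.9 and 26.7 CPM in whole-cell control, 22.5, 23.9 and 24.5 in whole-cell miR-27a, 52.02, 49.99 and 57.6 in pulldown control and 67.96, 72.8 and 73.7 CPM in pulldown miR-27a libraries. Here the whole-cell groups overlapped and the miR-27a pulldown was higher (0.53 ± 0.11, adjusted p = 0.0191, called in 7 fits). Nr2f6, whose 8mer is printed beside them, went the other way, at 35.4 to 44.1 CPM in pulldown control and 24.7 to 29.98 CPM in pulldown miR-27a libraries.

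Genes of the Wnt pathway did not pass: 37 were tested, none was called higher or lower by limma, 5 had an unadjusted p under 0.05, and the median was -0.07, or -0.13 and -0.043 without replicate 2 of pulldown control or of pulldown miR-27a. Beta-catenin (Ctnnb1) had a capture difference of 0.08 ± 0.08 (adjusted p = 0.758). Apc and Gsk3b, parts of the complex that marks beta-catenin for destruction, had 0.22 ± 0.12 (adjusted p = 0.482) and -0.01 ± 0.11 (adjusted p = 0.975). Runx1, a transcription factor and reported miR-27 target, had 0.07 ± 0.26 (adjusted p = 0.945). Of 24 tested genes of the miRNA machinery none passed in limma, 0 had an unadjusted p under 0.05, and the median was -0.04, or -0.0027 and -0.091 without replicate 2 of pulldown control or of pulldown miR-27a. The Argonaute gene listed as Eif2c2 (Ago2) had 0.25 ± 0.14 (adjusted p = 0.475).

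Other lists held few calls. Tnc, the matrix protein tenascin C, was the only called member of 20 tested tenascins, lecticans and proteoglycans. It was at 209.7, 222 and 222 CPM in whole-cell control, 469.8, 479.6 and 472 in whole-cell miR-27a, 241, 232 and 243 in pulldown control and 758, 622 and 704 CPM in pulldown miR-27a libraries, well apart between mimics in both fractions, with a capture difference of 0.41 ± 0.09 (adjusted p = 0.0337) that passed in 2 of 12 leave-one-out fits. Of 19 interferon response genes 1 was higher, Ddx58, a sensor of viral RNA (0.75 ± 0.17, adjusted p = 0.0373, 3 fits). Rsad2, Ifit3 and Usp18 of that list had 0.92 ± 0.25, 0.83 ± 0.25 and 0.81 ± 0.22 without passing (adjusted p = 0.0844, 0.137 and 0.0823), and the median was 0.12, with a range of 0.069 (without pulldown control replicate 3) to 0.19 (without replicate 2) over the leave-one-out fits.

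No member was called among 43 cytosolic ribosomal protein genes (median 0.07, 37 above 0), 50 respiratory chain subunits (0.03), 22 cholesterol synthesis genes (-0.06), 20 integrated stress response genes (-0.02), 13 nuclear long non-coding RNAs (0.07), 13 microglial markers (0.06), 12 neuron markers (-0.14), 13 endothelial, mural and fibroblast markers (-0.09) or 10 smooth-muscle contractile genes (-0.02). At an unadjusted p under 0.05 in limma, the counts in these lists, in the same order, were 0, 3, 1, 3, 2, 1, 2, 2 and 0. Leaving out 1 library of the miR-27a pulldown moved the median of the ribosomal genes across 0, with a median of -0.0017 (21 above 0) without replicate 1 and 0.15 (41 above 0) without replicate 2 (0.029 without pulldown control replicate 2). The respiratory chain had -0.056 (16 above 0) and 0.13 (42 above 0) without the same replicates, and -0.0036 without pulldown control replicate 2. The medians of the stress response, nuclear RNA, microglial and smooth-muscle lists also took both signs over the leave-one-out fits, and those of the cholesterol, neuron and vascular lists were below 0 in each, at -0.090 to -0.029, -0.24 to -0.14 and -0.10 to -0.015. Of 9 secreted and hormone-receptor genes, Fam19a4 and Ptgds were higher and Trf was lower. The share called was 33.3%, beside 1.07% of all genes tested, and the median was 0.34, with 7 above 0. This list was drawn from earlier results of these data, so its share is no independent result. Its summed level was 729 to 830 CPM in pulldown control and 615 to 784 CPM in pulldown miR-27a libraries, ranges that overlap. Calls rose with expression, from 0.108% among the 2775 genes of lowest mean CPM to 2.34% among the 2775 of highest.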

How the data were processed

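RNA-seq of total RNA was measured in 12 libraries, whole-cell or pulldown RNA of OPCs with either biotin-tagged mimic, grouped by their titles with 3 libraries a group. A stranded total RNA kit with ribosomal depletion was used, per the series' design text. By the same text the authors trimmed read pairs with skewer, aligned them to GRCm38 with HISAT2, sorted with SAMtools, assigned them to genes with featureCounts (Subread) and normalised in edgeR. The submitters' processing notes also name mm8, without a role. Neither the versions of these tools nor the control mimic's sequence is given in the sources used here.

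The authors deposited log2 CPM for 20540 genes. The lowest value, -6.27 in every library, is that of 0 reads with a prior of 0.25 reads. Subtracting it on the linear scale gave CPM, and 100% of values were whole multiples of 1 read within 0.01 reads. The authors' scaling was kept. Such libraries recover little of a mature microRNA, and Mir27a had 5 reads over the 12 libraries and was not tested.

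The capture difference was a contrast of 1 fit of all libraries on log2(CPM + 1) with limma 3.58.1 (R 4.3.3), with an empirical Bayes trend, two-sided, Benjamini-Hochberg adjusted over the 13875 genes that reached 1 CPM in 3 or more libraries, at a threshold of 0.05. The fit was also run on simulated data with the same scatter set for every gene and library. That run does not test the effect of libraries that stand apart, as in the real data. Other steps used Python 3.11.15, pandas 2.3.3, numpy 2.4.6, scipy 1.17.1 and matplotlib 3.10.9. Seed sites were searched in the longest 3′ UTR of each gene in GENCODE M21 (19704 of 20540 genes matched, 17000 with a 3′ UTR). The members and the 28 gene lists were chosen with earlier results of these data known. Lists are given by counts and medians, without a test. Of the 28, the mitochondrially encoded genes had no member in the table, and the Y-linked genes and their X-linked homologs had 4 and 5 tested members, with none called by limma, 0 and 1 at an unadjusted p under 0.05, and medians of 0.05 and 0.10. The Y-linked median was 0.21 and -0.16 without pulldown miR-27a replicates 1 and 2.

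Named genes were the 12 largest rises and 12 largest falls among called genes whose mean reached 5 CPM in some group, with the same sign in every leave-one-out fit and no provisional symbol, up to 4 called members of each list with the smallest p, up to 6 higher genes with an 8mer, and Ccnb1, Tnc, Mbp, Pdgfra, Olig2, Runx1, Apc, Gsk3b, Ctnnb1, Ago2 and Mir27a. Genes named outside this rule, such as Rn45s, Xist, Tcf7l2 and the uncalled interferon genes, were chosen after their values were seen. Of the called symbols, 2 had been turned into dates by a spreadsheet (8-Mar and 2-Mar) and are not described. Alternatives were other pseudocounts, filters, scalings, weights, blocks, voom and leaving out each library.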

Additional observations from a re-analysis of the deposited data

Results flagged for a closer look

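The mimic difference differed between pulldown and whole-cell RNA, by the test of the difference itself, in 149 genes. Of these, 12 had mimic differences that passed the test in both fractions with opposite signs. Their capture differences on the log2(CPM + 1) scale were -0.96 for Nkx6-2, -0.85 for Gng4, -0.80 for Sema4a, -0.69 for Ajap1, -0.65 for Prph, -0.59 for Lrch1, -0.57 for Metrn, -0.51 for Psd2 and -0.50 for Spry1, and 0.54 for Calcrl, 0.82 for Itga8 and 2.60 for Srp54b. Nkx6-2, Gng4, Prph, Lrch1 and Itga8 passed in each of the 12 leave-one-out fits, Spry1 and Srp54b in 11, Psd2 in 8, Sema4a in 6, Metrn and Calcrl in 5 and Ajap1 in 3. No group of 4 or more libraries existed in which a single library could be tested against the others.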

How the results depend on the processing

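The 149 genes (47 higher, 102 lower) became 43 to 473 when each library was left out in turn, with 21 to 159 higher and 22 to 314 lower. Without the filter on low values there were 73 (30 higher, 43 lower) among 20540 genes, of which 68 were among the 149. Array weights per library gave 1735 (688 higher, 1047 lower), with a weight of 13.6 for pulldown miR-27a replicate 3 and an estimate that had not converged. The replicate block within pulldown libraries, added after the data were seen, gave 644 (239 higher, 405 lower). A replicate block over all 4 groups gave 170 (55 higher, 115 lower), 142 of them shared, although same-numbered libraries outside the pulldown pairs correlated at only -0.186 to 0.161. Other pseudocounts, the deposited log2 values, a filter of 5 CPM, library totals, median-of-ratios factors and limma voom gave 119 to 175. Of 1103 values for 48 named genes under 23 alternatives, 883 kept direction and side of the threshold, 196 lost the call, 12 gained one and 12 reversed. The reversals were in genes that had not passed, and their cause was not tested. With 1 library left out Ccnb1 ranged from -0.068 to 0.095 (-0.0086, -0.013, -0.045 and -0.068 without replicate 1 of whole-cell control, whole-cell miR-27a, pulldown control and pulldown miR-27a). Runx1 had -0.21 with array weights, and with 1 library left out -0.12 to 0.23 (-0.067 and -0.12 without replicate 1 of pulldown control and pulldown miR-27a). Gsk3b had 0.0022 with median-of-ratios factors, and with 1 library left out -0.078 to 0.049 (0.039, 0.026, 0.049 and 0.044 without whole-cell control replicate 2, whole-cell miR-27a replicate 1, pulldown control replicate 2 and pulldown miR-27a replicate 3). The edgeR and DESeq2 tests were planned only for deposited counts and were not run, since the deposited values are log2 CPM. They could have been run on the recovered reads, for which voom was used instead. The 8mers alone are given beside all sites in the main text. Depth limits low genes, since 0 reads allow up to 0.116 to 0.200 CPM.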

Other observations

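The genes and families here were chosen after their values were seen, and no list of them was tested. Called genes of insulin and growth factor signalling fell on both sides. Grb10, an adaptor that dampens insulin receptor signalling, was at 17.8, 18.9 and 16.6 CPM in whole-cell control, 27.9, 23.7 and 26.8 in whole-cell miR-27a, 29.1, 30.8 and 29.1 in pulldown control and 68.1, 67.4 and 61.5 CPM in pulldown miR-27a libraries, with a capture difference of 0.59 ± 0.11 (adjusted p = 0.0142, limma). Igf2, a growth factor, had 0.63 ± 0.13, with 14.8 to 16.8 CPM in pulldown control and 23.8 to 25.1 CPM in pulldown miR-27a libraries. Irs1, the insulin receptor substrate, was lower, at 124, 137 and 137 CPM in pulldown control and 80.5, 83.5 and 82.9 CPM in pulldown miR-27a libraries (-0.54 ± 0.09). Pdgfa, a ligand of the OPC receptor Pdgfra, was lower too (-0.65 ± 0.14), at 40.99, 31.7 and 39.8 CPM in pulldown control and 21.6, 24.7 and 27.8 CPM in pulldown miR-27a libraries.

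Arpc1a and Arpc1b, which encode alternative subunits of the actin-branching Arp2/3 complex, were both lower. Arpc1a was at 277, 278 and 282 CPM in whole-cell control, 264, 255 and 258 in whole-cell miR-27a, 319, 316 and 335 in pulldown control and 214, 209 and 223 CPM in pulldown miR-27a libraries (-0.48 ± 0.07), and Arpc1b had -0.42 ± 0.09. Net1, a guanine nucleotide exchange factor, was higher (0.78 ± 0.11), at 35.8, 33.4 and 33.9 CPM in pulldown control and 50.98, 51.5 and 49.9 CPM in pulldown miR-27a libraries, which did not overlap. Of 61 tested potassium channel genes 3 were higher (Kcna5, Kcna1 and Kcnd2) and none was lower. Only 27 of the 61 were above 0, and their median was -0.036, beside -0.013 over all genes tested. Of 19 tested semaphorins, Sema3a was higher and Sema4a and Sema5a were lower, of 40 kinesins Kifc3 was lower, and of 64 histone cluster genes none passed limma's test and 4 had an unadjusted p under 0.05. The shares called were 4.92% of the potassium channel genes, 15.8% of the semaphorins and 2.5% of the kinesins, beside 1.07% of all genes tested.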
